A study of Mus musculus with 36 samples.

Results

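The change in gene expression from embryonic stem cells (ESC) to neural precursor cells (NPC) was compared between wild type mouse cells (WT) and a line labelled MLL3/4 dCD, in which MLL3 and MLL4 lack catalytic activity. The quantity of interest is the interaction, which is the log2 change from ESC to NPC in dCD minus the same log2 change in WT. A negative interaction means that a gene rose less or fell more in dCD, and a positive one means that it rose more or fell less. The comparison rests on 12 of the 36 samples of the series, in 4 groups of 3 libraries: ESC WT, ESC dCD, NPC WT and NPC dCD. A further 6 libraries, ESC and NPC of a line whose MLL2 carries a degron (MLL2dTAG), entered the fit for the estimate of the spread and for 1 description.

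All 4 groups derive from the E14 mouse ESC line. ESC were grown with serum replacement and leukaemia inhibitory factor, and NPC are labelled as treated with retinoic acid (RA) and were harvested on day 4. The degrader dTAG-13 is listed as a treatment for all of these groups, WT and ESC included. The labels' protocol gives it at 2 µM from day 1 of differentiation, and how long ESC received it is not stated in those labels. WT and dCD carry no degron by their labels, and both are listed as receiving the compound, so the comparison does not test it. Each genotype is a line of its own, so the edit and a difference between lines cannot be told apart. The labels do not state whether the 3 libraries of a group came from separate cultures, so the p-values measure the spread between libraries, which may be technical.

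MLL3 and MLL4, encoded by Kmt2c and Kmt2d, are the methyltransferases of the COMPASS family that place monomethylation on lysine 4 of histone H3 at enhancers. They also act through their protein partners without using the catalytic domain, which is why a catalytic mutant is studied apart from a deletion. RA added to ESC binds nuclear receptors that turn on receptor and retinoid-metabolism genes, Hox genes and their cofactors, while the pluripotency network is shut down.

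The 12 libraries held 19.4 to 36.3 M counts each, and a floor of 3 counts corresponds to 0.0799 to 0.16 CPM (counts scaled to library size) in a library. In bulk RNA, fewer cells of a type and less RNA per cell cannot be told apart. The catalytic edit leaves the transcripts in place, so mRNA levels do not check the genotype labels: Kmt2c lay between 161 and 219 CPM and Kmt2d between 151 and 268 CPM over the 12 libraries, and neither was called in the interaction (edgeR quasi-likelihood, Benjamini-Hochberg adjusted p = 0.18 and 0.93). ESC WT replicate 2 was the highest ESC WT library for both genes, and without it both were called, at −0.24 (adjusted p = 0.00031, edgeR) and −0.21 (adjusted p = 0.0043, edgeR).

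The stage labels were checked against markers. The summed level of 30 pluripotency genes fell from between 6600 and 7080 CPM in ESC WT to between 383 and 385 CPM in NPC WT, and was 377 to 383 CPM in NPC dCD. Pou5f1, which encodes the pluripotency factor OCT4, was at 612, 486 and 568 CPM in ESC WT and at 0.855, 1.28 and 0.894 CPM in NPC WT. Its NPC dCD libraries were at 1.29, 1.24 and 1.29 CPM, and its interaction was not called. The summed level of the neural progenitor list was 1940 to 1950 CPM in NPC WT and 2310 to 2460 CPM in NPC dCD. Markers of neural precursors were uneven. Pax6, a neural patterning factor, rose in WT to 38.1, 38.5 and 40.2 CPM, but Sox1, a factor of early neural precursors, was at 3.26, 2.82 and 3.21 CPM in NPC WT, inside its ESC WT range of 2.56 to 3.47 CPM. Sox2, shared by ESC and neural precursors, fell in WT from between 292 and 322 CPM to between 14 and 14.7 CPM. Genes of mesoderm also rose: Wt1, a factor of the intermediate mesoderm and kidney, reached 428, 426 and 440 CPM in NPC WT. NPC is therefore used below as the label of the stage.

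The interaction was called (adjusted p under 0.05) for 8807 of 20511 genes tested, which is 42.9%. Of these, 4103 were positive (20% of genes tested) and 4704 negative (22.9%). Most were small, with a median size of 0.54 on the log2 scale, beside a biological coefficient of variation of 4.01% between replicates. Those of at least 2-fold were 1166 positive (5.68% of genes tested) and 1107 negative (5.4%). In the gene groups below, counts of at least 2-fold are read against these 2 shares. Counts of all calls are read against the 20% and 22.9%. For scale, 16302 genes (79.5%) were called between NPC and ESC in WT (40.4% lower in NPC) and 15923 (77.6%) in dCD.

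Genes with an interaction of at least 2-fold were placed by what they did in WT and in dCD. The largest class held 696 genes that rose at least 2-fold in WT and rose less, did not rise or fell in dCD, against 142 that rose more. Among genes that fell at least 2-fold in WT, 605 fell less, did not fall or rose in dCD, and 148 fell more. These classes are called induced less and silenced less below, and leave out the opposite moves of at least 2-fold. A further 251 genes rose at least 2-fold in dCD without a 2-fold rise or fall in WT, 178 fell at least 2-fold in dCD only in this sense, and 35 moved at least 2-fold in opposite directions in the 2 genotypes. The remaining 218 did not meet these limits. Thus, among genes that changed at least 2-fold in WT, a smaller response in dCD was more frequent than a larger one, in both directions. The 251 and 178 genes that passed 2-fold only in dCD are outside that comparison.

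The same WT libraries define the classes and enter the interaction, which by itself favours smaller responses in dCD. Induced and silenced genes were therefore also taken from the MLL2dTAG line, whose libraries are in neither genotype compared. Of 4536 genes induced at least 2-fold there, 510 had a negative and 298 a positive interaction of at least 2-fold. Of 4047 genes silenced there, 449 had a positive and 229 a negative one. The surplus of smaller responses was in the same direction and less wide: 11.2% against 6.57% of induced genes, where the classes taken from WT gave 15.3% against 3.08%. The line is labelled WT-MLL2dTAG, so this choice still favours genes that respond in a WT-type line. No such count was made for genes chosen by their response in dCD. Rises of at least 2-fold numbered 4616 in WT and 4352 in dCD, and falls 4345 and 4117.

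**Figure D1:**
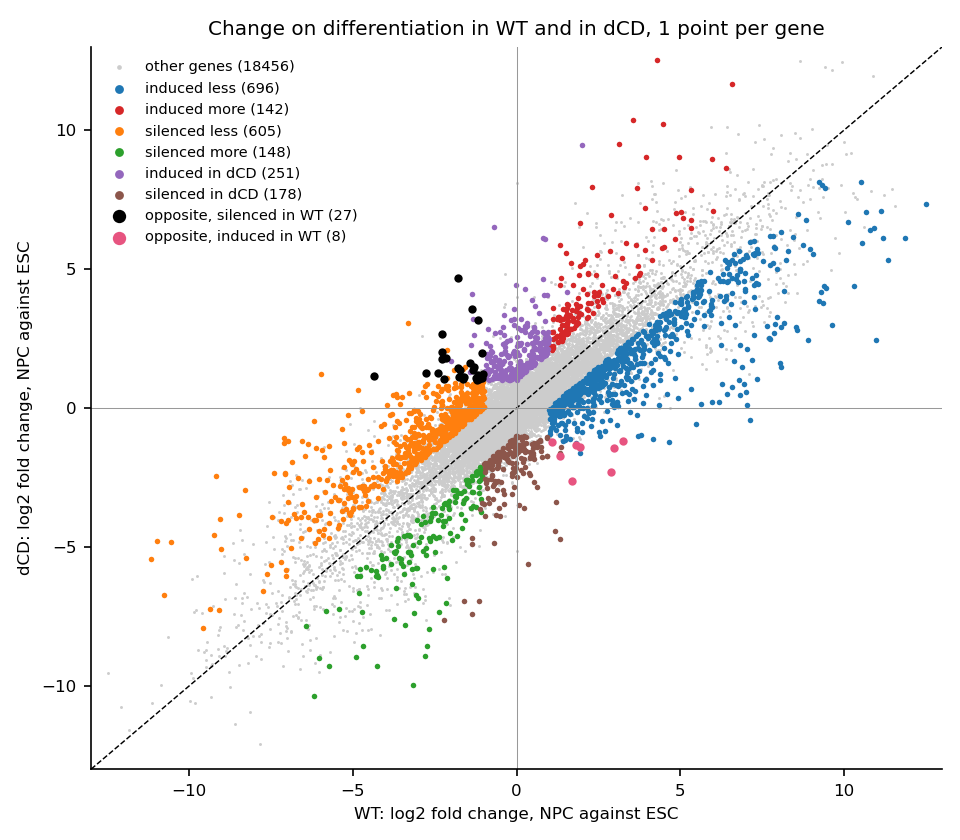
Each point is 1 of the 20511 genes tested, with its log2 fold change from ESC to NPC in WT on the horizontal axis and in dCD on the vertical axis; the dashed line marks equal change. Colours mark the classes with an interaction of at least 2-fold, and the 696 genes induced less and the 605 silenced less lie on the sides of the line that face 0.

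The stage at which the genotypes differed was not the same for the 2 main classes. Over all genes tested, dCD differed from WT in 48.3% as ESC (25.7% higher in dCD, 22.6% lower) and in 53.5% as NPC (26.7% higher, 26.8% lower). In ESC, differences of 2-fold or more made up 5.66% upward and 3.86% downward; as NPC these last shares were 7.03% and 4.86%. Of the 696 genes induced less, 349 were already at least 2-fold higher in dCD than in WT as ESC, and 184 were at least 2-fold lower in dCD as NPC. Their median difference between dCD and WT was 1.12 in ESC and −0.55 in NPC on the log2 scale. In 407 of them dCD still rose at least 2-fold, and in 168 the dCD change was not called. Of the 605 genes silenced less, 333 were at least 2-fold higher in dCD NPC and 142 at least 2-fold lower in dCD ESC, with median differences of −0.47 in ESC and 1.19 in NPC. In these classes a smaller induction was thus more often a higher start than a lower end, and a smaller silencing more often a higher end. The same WT libraries chose the classes, which favours a low ESC WT level among the 696 and a low NPC WT level among the 605. The split by stage was not repeated for genes chosen from MLL2dTAG. A group with 3 or fewer counts occurred in 70 of the 696 and in 45 of the 605.

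Among genes induced less, Lrrc4c, a synaptic adhesion protein, rose in WT from 0.319, 0 and 0 CPM to 15.2, 17.1 and 16.6 CPM. In dCD it went from 0.683, 0.911 and 0.895 CPM to 6.56, 7.31 and 5.54 CPM, for an interaction of −4.70 (SE 0.57; −9.11 without ESC WT replicate 1, the only ESC WT library with a count). The dCD libraries were above WT in ESC and below WT in NPC, with no overlap at either stage. Nhlh2, a basic helix-loop-helix factor of differentiating neurons, had no count in the ESC WT libraries and reached 15.1, 14.3 and 14.2 CPM in NPC WT. Against a floor of 3 counts over the group its rise in WT was at least 379-fold, and in dCD it rose 71-fold to 11.3, 12.6 and 10.4 CPM. Tcf21, a factor of visceral mesoderm, also had no count in ESC WT and rose at least 599-fold, to between 22.6 and 23.2 CPM. It rose 169-fold in dCD, to between 13 and 14.3 CPM, and the fitted interactions of these 2 genes depend on the ESC WT count of 0.

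Of 24 genes of the RA response, 9 had a negative interaction of at least 2-fold and none a positive one; 14 were called negative and 3 positive. The list median was −0.57, against −0.04 over all genes tested. Rarb, the receptor gene that RA induces directly, and Cyp26a1, the enzyme that degrades RA, differed in the sign of the interaction and in that of the NPC difference. Rarb was at 0.745, 0.232 and 0.272 CPM in ESC WT and at 1.11, 0.911 and 0.708 CPM in ESC dCD, and it reached 227, 230 and 221 CPM in NPC WT and 250, 256 and 253 CPM in NPC dCD. Its interaction was −1.11 (SE 0.29), yet every NPC dCD library was above every NPC WT library. Cyp26a1 reached 135, 139 and 131 CPM in NPC WT and 105, 98.6 and 101 CPM in NPC dCD, from a lower ESC level in dCD, so that its interaction was positive (0.42, SE 0.16). That call was lost with halved counts and without any of 5 single libraries (0.35 to 0.39 without ESC WT replicate 3, ESC dCD replicates 2 and 3 and NPC dCD replicate 1, and 0.40 without NPC WT replicate 3).

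Rarb and Cyp26a1 were the 2 of 18 RA genes found in the RefSeq promoter table (build GRCm38.p6) whose 250 bases before the start hold a DR5 element, the pair of receptor half-sites, spaced by 5 bases, that RA receptors bind. The search covered both strands, and 29 of 32851 such windows (0.0883%) hold it. The windows are shown because both genes rose strongly in both genotypes; the element is in capitals, the sequences run 5′ to 3′ on the strand of the gene, and a match is a description of the letters only. Rarb is at chr14:16575477-16575726, minus strand, with the element 53 to 37 bases before the start. Cyp26a1 is at chr19:37697558-37697807, plus strand, with the element on the opposite strand 32 to 16 bases before the start.
Rarb: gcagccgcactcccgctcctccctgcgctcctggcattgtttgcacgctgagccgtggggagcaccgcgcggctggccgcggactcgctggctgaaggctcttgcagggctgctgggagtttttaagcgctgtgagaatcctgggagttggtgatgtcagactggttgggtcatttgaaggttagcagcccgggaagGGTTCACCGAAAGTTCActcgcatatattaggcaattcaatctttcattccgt
Cyp26a1: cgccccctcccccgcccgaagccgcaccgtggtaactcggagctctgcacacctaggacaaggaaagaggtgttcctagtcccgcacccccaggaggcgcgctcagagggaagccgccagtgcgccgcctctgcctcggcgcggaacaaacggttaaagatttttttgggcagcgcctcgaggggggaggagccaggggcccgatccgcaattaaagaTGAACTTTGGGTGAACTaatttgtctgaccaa

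The other RA genes with a large negative interaction encode transcription factors and a synthesis enzyme. Meis2, a homeobox cofactor of HOX proteins, was at 2.02, 2.32 and 1.19 CPM in ESC WT and at 9.56, 9.86 and 9.4 CPM in ESC dCD. It reached 397, 384 and 390 CPM in NPC WT and 335, 341 and 336 CPM in NPC dCD (interaction −2.60, SE 0.12, edgeR adjusted p = 4.9e-19). The groups did not overlap at either stage, and the ESC difference (2.39) was the larger one. For its relative Meis1 the dCD and WT libraries overlapped in NPC (209 to 220 and 214 to 222 CPM), and the interaction of −1.61 (SE 0.15) came with a 1.58 higher log2 level in ESC. Nr2f2, an orphan nuclear receptor, and Zfp503, a zinc-finger repressor, were both higher in dCD as ESC and lower as NPC. Nr2f2 reached 311, 322 and 312 CPM in NPC WT and 207, 202 and 205 CPM in NPC dCD (interaction −1.61, SE 0.20), and Zfp503 had an interaction of −2.36 (SE 0.23). Aldh1a2, the enzyme that makes RA in the embryo, differed at the end instead: it was at 127, 123 and 126 CPM in NPC WT and at 47.8, 52 and 50.7 CPM in NPC dCD (interaction −1.55, SE 0.15), while its ESC difference was not called (adjusted p = 0.18, edgeR).

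Hox genes, which give cells their position along the body axis, were changed in both directions. Of 39 tested, 13 had a negative and 7 a positive interaction, 11 and 6 of them at least 2-fold; 24 were called higher in dCD as ESC (25.7% over all genes tested) and none lower, and 28 were called higher as NPC and 5 lower (26.7% and 26.8% over all genes). The summed Hox level was 18.5 to 21.7 CPM in ESC WT and 37.9 to 43 CPM in ESC dCD, and 1270 to 1300 against 1390 to 1430 CPM in NPC. Hoxc5 and Hoxb1 were among the 5 that ended lower. Hoxc5 rose in WT from 0.213, 0.0663 and 0.136 CPM to 216, 217 and 218 CPM, and in dCD from 0.512, 0.746 and 0.597 CPM to 80.3, 81.7 and 84.1 CPM (interaction −3.64, SE 0.38). Every NPC dCD library was far below every NPC WT library for this gene. Hoxb1, a hindbrain gene directly induced by RA, reached 6.87, 6.36 and 5.73 CPM in NPC WT and 3.01, 3.2 and 3.37 CPM in NPC dCD; its ESC WT group held 2 counts, so no fold is given.

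Other members had a positive interaction. Hoxc13 fell in WT from 2.5, 2.45 and 2.65 CPM to 0.791, 0.479 and 0.391 CPM and rose in dCD from 2.35, 3.02 and 2.24 CPM to 5.34, 5.35 and 5.05 CPM (interaction 3.26, SE 0.28). The groups overlapped in ESC and were apart in NPC. Hoxd13 (1.74), Hoxd10 (2.91), Hoxa11 (3.81) and Hoxc12 (7.20) were also among the 6 with a positive interaction of at least 2-fold, with NPC dCD means of 2.79, 1.06, 1.42 and 0.47 CPM; Hoxc12 had no count in NPC WT, so its fitted value is no bound, and Hoxa11 was at 7.23 without NPC WT replicate 3. The last of the 6 was Hoxd1 (1.07, SE 0.42). Its call was lost with no filter on low counts (1.07), with halved counts (1.06) and without any of 7 single libraries. Values without a library lay between 0.68 (ESC WT replicate 3) and 1.06 (NPC dCD replicate 1 or 2). The other libraries were ESC dCD replicates 2 and 3 and NPC WT replicates 1 and 2. Neighbouring Hox genes overlap, and no source used here says whether reads were counted by strand, so levels of adjoining genes are not fully separate.

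**Figure D2:**
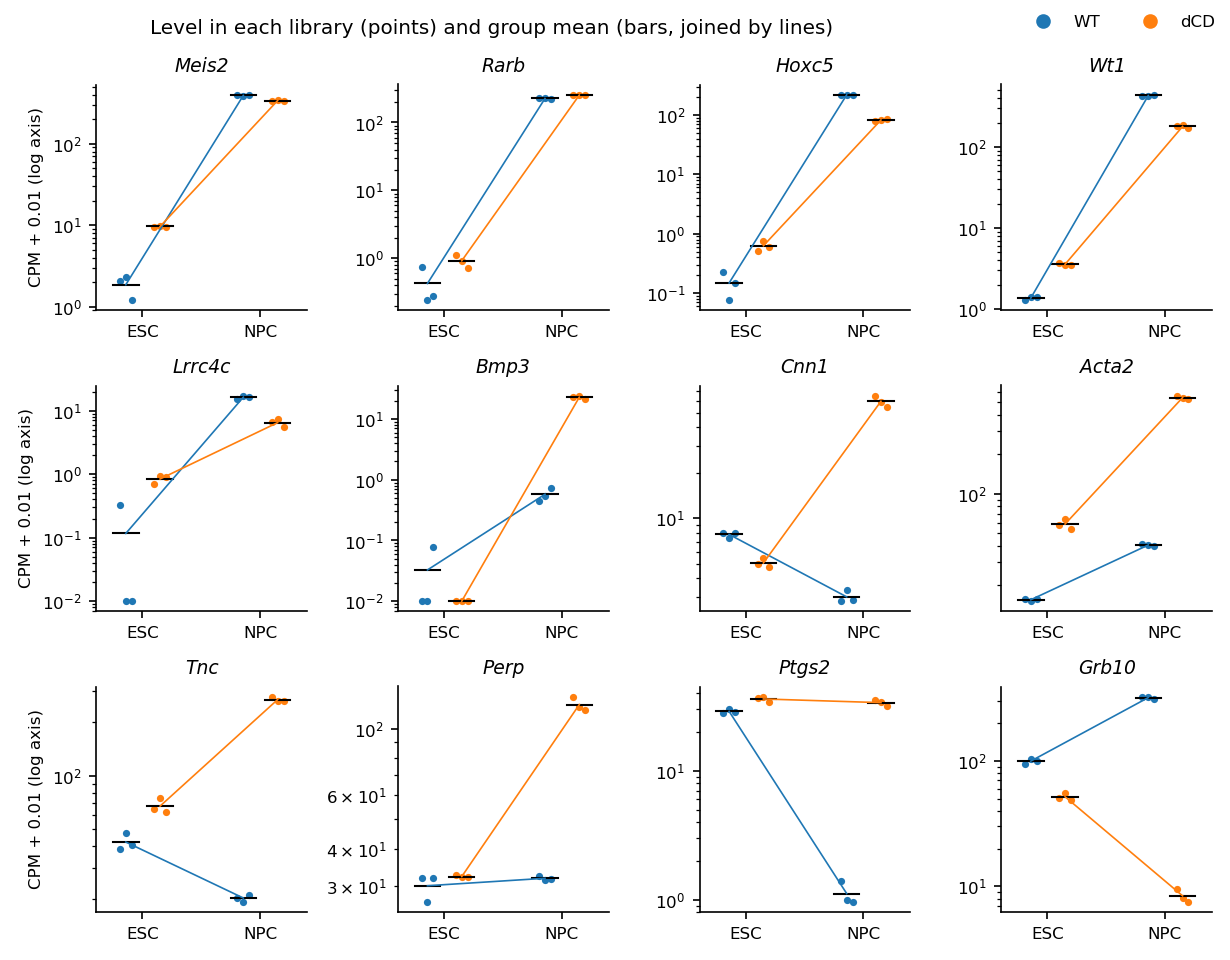
Level of 12 genes in each library as CPM + 0.01 on a log axis, with WT in blue, dCD in orange, short bars for the means of 3 libraries and lines that join ESC and NPC of a genotype. Meis2 and Rarb start higher in dCD and end close to WT, Hoxc5 and Wt1 end lower, Bmp3, Cnn1, Acta2, Tnc and Perp end higher, Ptgs2 stays up and Grb10 falls only in dCD.

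Mesoderm factors were more often negative in the interaction, but their NPC levels differed both ways. Of 34 tested, 12 had a negative and 2 a positive interaction of at least 2-fold, and the list's summed level was 1340 to 1380 CPM in NPC WT and 800 to 859 CPM in NPC dCD. As NPC, 13 members were called higher in dCD and 11 lower (26.7% and 26.8% over all genes), with a median difference of −0.01. Abundant members such as Wt1 and Gata2 were among the lower ones. Wt1 reached 182, 186 and 170 CPM in NPC dCD, 41.5% of the WT mean, from 3.67, 3.48 and 3.5 CPM in ESC dCD against 1.28, 1.39 and 1.39 CPM in ESC WT (interaction −2.64, SE 0.16). An antisense transcript starts beside Wt1, and its reads may be among these counts. Gata2, a factor of blood progenitors and of neural subtypes, reached 369, 403 and 388 CPM in NPC WT and 150, 140 and 141 CPM in NPC dCD (interaction −1.17, SE 0.13). Tbx5, a heart and forelimb factor, reached 8.04, 7.56 and 7.43 CPM in WT and 1.96, 1.66 and 1.76 CPM in dCD (interaction −3.01, SE 0.44). For these 3 genes the NPC groups did not overlap. Tbx20, another heart factor, did the opposite, at 0.886, 0.692 and 0.95 CPM in NPC WT and 11.5, 12.3 and 12 CPM in NPC dCD (interaction 3.02, SE 0.30).

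Genes of the WNT pathway were more often negative as well: of 45 tested, 11 had a negative and 2 a positive interaction of at least 2-fold. Among the ligands, Wnt4 reached 251, 250 and 242 CPM in NPC WT and 118, 118 and 119 CPM in NPC dCD (interaction −1.54, SE 0.18). Wnt2b reached 113, 116 and 116 against 47.7, 49.1 and 49.5 CPM (interaction −1.46, SE 0.24). Among modulators, Rspo1, which amplifies WNT signals at the receptor, rose in WT to 12.9, 13.6 and 13 CPM and was at 2.91, 2.51 and 3.05 CPM in NPC dCD (interaction −1.89, SE 0.21). The secreted antagonist Sfrp1 reached 688, 693 and 690 against 294, 303 and 297 CPM (interaction −0.83, SE 0.05). Among targets of the pathway, Notum had an interaction of −2.12 (SE 0.13) and Sp5 one of −3.37 (SE 0.39). For Sp5 the ESC difference (2.39) was larger than the NPC difference (−0.97). Its ESC means were 0.333 CPM in WT, from 24 counts, and 1.62 CPM in dCD. Agonists, antagonists and targets thus all had members that were induced less.

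Imprinted genes, expressed from 1 parental copy, mostly had negative interactions where called. Of 43 tested, 26 had a negative and 7 a positive interaction (22.9% and 20% over all genes), 10 and 2 of them at least 2-fold. As ESC, 25 were called higher in dCD and 11 lower (25.7% and 22.6% over all genes). As NPC, 11 were called higher and 18 lower (26.7% and 26.8% over all genes). Grb10, an adaptor that restrains insulin and growth factor receptors, moved in opposite directions in the genotypes. It was at 94.9, 103 and 101 CPM in ESC WT and 50.8, 55.6 and 48.8 CPM in ESC dCD, then rose to 321, 324 and 313 CPM in NPC WT and fell to 9.57, 8.14 and 7.48 CPM in NPC dCD (interaction −4.30, SE 0.08). NPC dCD held 2.63% of the WT level. Among growth-related genes, H19, a long noncoding RNA, reached 2730, 2630 and 2660 CPM in NPC WT and 1560, 1560 and 1530 CPM in NPC dCD (interaction −1.23, SE 0.06). Peg10, a retrotransposon-derived gene needed in the placenta, reached 2880, 2820 and 2770 against 1650, 1640 and 1610 CPM (interaction −1.69, SE 0.05). Both H19 and Peg10 also started higher in dCD, by 0.45 and 0.90 on the log2 scale in ESC. Zim1, a zinc-finger gene beside Peg3, reached 666, 661 and 666 against 205, 212 and 197 CPM (interaction −1.30, SE 0.12). Plagl1, a factor that regulates other imprinted genes, differed only at the start: its ESC libraries were at 13.9, 12.2 and 12.9 CPM in WT and 33.6, 29.9 and 31.5 CPM in dCD, and its NPC difference was not called (adjusted p = 0.18, edgeR). Nap1l5 was among the 2 with a positive value of at least 2-fold, rising to 2.47, 2.88 and 3.46 CPM in NPC WT and to 18.4, 16.4 and 17 CPM in NPC dCD; the other, Phlda2, a growth-limiting placental gene (1.71), fell less.

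Neural progenitor genes were changed in both directions. Of 35 tested, 11 had a negative and 3 a positive interaction of at least 2-fold. Pax3, a dorsal neural tube and neural crest factor, was at 0.106, 0.0663 and 0 CPM in ESC WT and at 0.726, 1.08 and 0.746 CPM in ESC dCD. It ended higher in dCD, at 18.5, 20.7 and 20 CPM against 6.62, 6.26 and 5.28 CPM in WT, although its interaction was negative (−2.24, SE 0.70); leaving out ESC WT replicate 3 ended that call (−1.61, edgeR adjusted p = 0.084). Lmx1a, a roof plate factor, ended lower, at 4.08, 3.92 and 4.75 CPM against 9.5, 9.69 and 10 CPM in WT (interaction −2.47, SE 0.35). Pax6 had a small negative interaction (−0.52, SE 0.19; −0.89 without ESC WT replicate 2) whose call needed ESC WT replicates 1 and 3 and ESC dCD replicate 2 (−0.47, −0.28 and −0.48 without each), and its NPC dCD libraries were at 51.5, 55.5 and 51.3 CPM, above WT. Nes, an intermediate filament of progenitors, overlapped between genotypes in ESC (60.3 to 67.2 and 63.9 to 73 CPM) and reached 90.6, 92.4 and 90.5 CPM in NPC WT and 239, 241 and 213 CPM in NPC dCD (interaction 1.25, SE 0.07).

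Genes of neuronal structure had the opposite balance, with a median of 0.42. Of 41 tested, 19 had a positive and 4 a negative interaction (20% and 22.9% over all genes), 10 and 2 of them at least 2-fold. Stmn2, a microtubule regulator of growing axons, fell less in dCD. It went from 359, 285 and 336 CPM to 25.7, 25.7 and 25.6 CPM in WT and from 309, 325 and 320 CPM to 91.9, 99.6 and 90.2 CPM in dCD (interaction 1.91, SE 0.08). The groups overlapped in ESC and were apart in NPC. Elavl3, a neuronal RNA-binding protein, fell in WT from between 33.1 and 36.3 CPM to between 16.4 and 20.5 CPM and rose in dCD from between 14.2 and 15.7 CPM to between 29 and 34.3 CPM (interaction 2.02, SE 0.11). Tubb3, a tubulin of neurons, reached 86.5, 82.1 and 78.6 CPM in NPC dCD and 40, 43.9 and 43.5 CPM in NPC WT (interaction 0.51, SE 0.08). The 2 members with a negative interaction of at least 2-fold were Dcx (−2.38) and the neurofilament gene Nefm (−1.45), and Dcx had NPC means of 81.4 CPM in WT and 77.3 CPM in dCD. The Dcx value rests on ESC means near the floor: it was −6.23, −1.73 and −1.74 without ESC WT replicates 1, 2 and 3, and was not called in the last 2 cases.

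**Figure D3:**
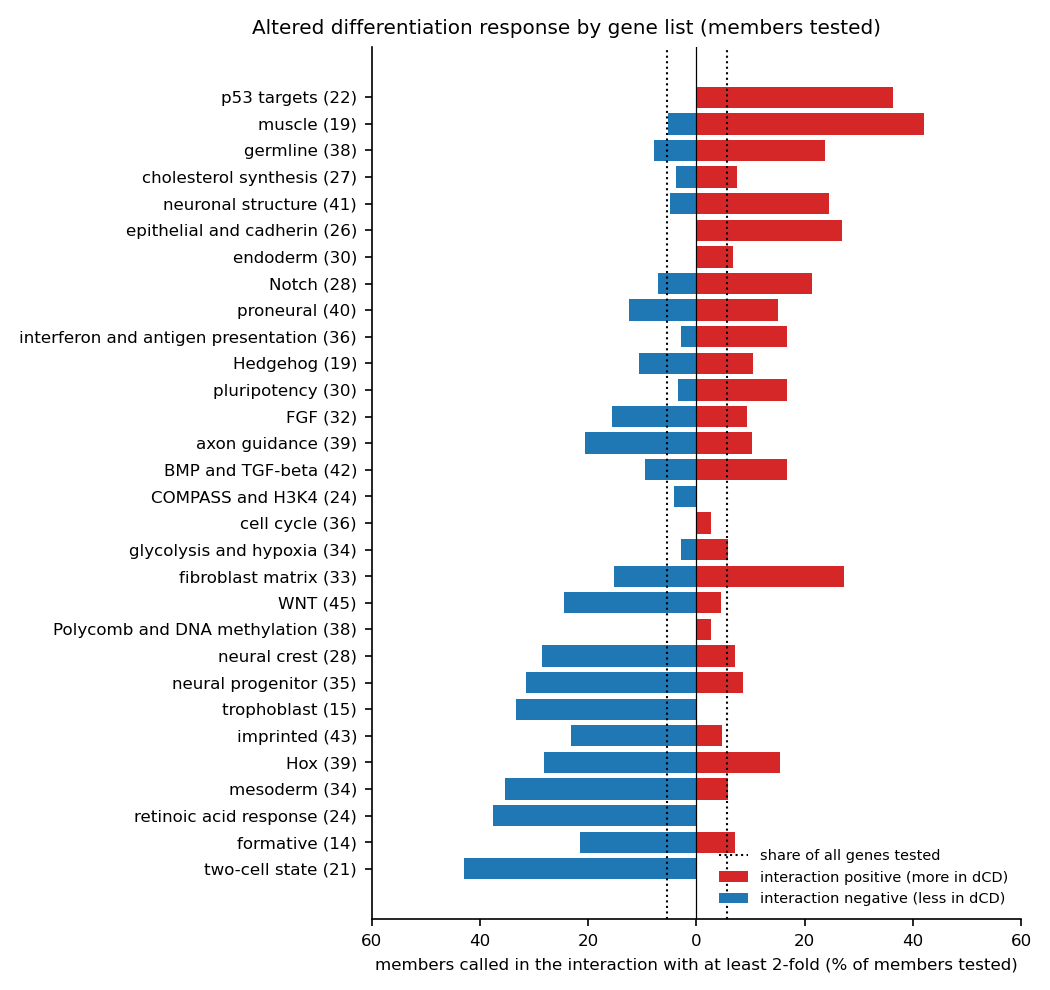
Share of the tested members of each of 30 gene lists whose interaction was called with at least 2-fold, positive to the right in red and negative to the left in blue, with lists ordered by their median interaction; dotted lines mark the shares over all genes tested, 5.68% and 5.4%. Lists of p53 targets and muscle genes lie at the top, and lists of the RA response, formative and two-cell state at the bottom.

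Some muscle genes were far higher in dCD at the NPC stage and others were lower. Of 19 muscle genes tested, 8 had a positive and 1 a negative interaction of at least 2-fold, and the list's summed level was 95.8 to 99.3 CPM in NPC WT and 665 to 710 CPM in NPC dCD, most of it Acta2. As NPC, 6 members were called higher in dCD (Acta2, Cnn1, Tagln, Actc1, Acta1 and Des) and 6 lower (Tnni1, Tnni3, Myh6, Myl3, Myl4 and Myl7). Over all genes tested these shares were 26.7% and 26.8%, so neither count was far from them. Acta2, the smooth muscle actin, was at 15.7, 15.1 and 15.6 CPM in ESC WT and 57.6, 64.5 and 53.4 CPM in ESC dCD, and reached 41, 40.6 and 39.8 CPM in NPC WT and 559, 537 and 528 CPM in NPC dCD (interaction 1.82, SE 0.08). Cnn1, the actin-binding protein calponin, fell in WT from 8.04, 7.43 and 7.95 CPM to 2.82, 3.33 and 2.88 CPM and rose in dCD from 4.95, 5.47 and 4.73 CPM to 64.7, 59.1 and 54.7 CPM (interaction 4.92, SE 0.14). Tagln, another smooth muscle protein, was at 3.39, 2.45 and 2.49 CPM in NPC WT and 33.9, 32.1 and 30.4 CPM in NPC dCD (interaction 2.62, SE 0.19). Actc1, the cardiac actin, reached 5.46, 5.02 and 4.81 CPM in NPC dCD against 0.253, 0.293 and 0.363 CPM in WT (interaction 4.35, SE 0.49). Acta1, the skeletal actin, reached 5.37, 5.49 and 4.69 against 0.95, 0.692 and 0.391 CPM (interaction 2.14, SE 0.36).

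Myod1, Myog and Myf5, the skeletal muscle regulators, had no count in any NPC dCD library, while every gene of the muscle list had a count in the NPC WT group. No interaction was called for the cardiac myosins Myh6 and Myh7, and Ttn, which encodes titin, had a negative one (−1.10, SE 0.26), from 68.6, 69.5 and 65.8 CPM in ESC dCD to 1.1, 1.3 and 1.47 CPM in NPC dCD. Tnni3, cardiac troponin I, was also negative (−0.86, SE 0.20), at 1.87, 1.6 and 1.61 CPM in NPC dCD against 6.05, 5.11 and 5.14 CPM in NPC WT. Tnnt2, cardiac troponin T, was called positive (3.04, SE 1.02; 4.98 without ESC dCD replicate 2) but stayed at or below 0.645 CPM in NPC, and leaving out NPC dCD replicate 3 ended the call (2.66). Whether a change in the cells present takes part in the rise of the actins was not tested.

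Acta1 and Actc1 belong to the 4 of 22 muscle genes in the promoter table whose window holds a CArG box, the site of serum response factor; the others are Myl3 and Myl7. The search covered both strands, and 482 of 32851 windows (1.47%) hold it. The 2 windows are shown because both actins rose in dCD and fell in WT, with the box in capitals. Acta1 is at chr8:123894776-123895025, minus strand, with the box 73 to 64 bases before the start, and Actc1 is at chr2:114052876-114053125, minus strand, with the box 47 to 38 bases before it. Myl3 was called with a positive interaction at means under 1.1 CPM, and Myl7, with the same box, was not called.
Acta1: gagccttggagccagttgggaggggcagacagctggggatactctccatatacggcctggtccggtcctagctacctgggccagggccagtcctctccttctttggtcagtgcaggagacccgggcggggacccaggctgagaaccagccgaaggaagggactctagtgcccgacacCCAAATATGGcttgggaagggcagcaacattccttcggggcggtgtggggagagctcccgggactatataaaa
Actc1: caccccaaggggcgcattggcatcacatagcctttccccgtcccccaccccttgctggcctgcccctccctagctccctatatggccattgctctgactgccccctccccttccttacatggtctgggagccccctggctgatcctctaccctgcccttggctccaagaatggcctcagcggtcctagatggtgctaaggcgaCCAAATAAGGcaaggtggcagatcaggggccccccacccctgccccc

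The interactions of matrix genes went in both directions, while their levels were more often higher in dCD at both stages. Of 33 fibroblast matrix genes tested, 9 had a positive and 5 a negative interaction of at least 2-fold, and their summed level was 3630 to 3670 CPM in NPC WT and 5810 to 6080 CPM in NPC dCD. Tnc, the matrix protein tenascin C, fell in WT from 38.4, 47.5 and 40.5 CPM to 20.5, 19.3 and 21.3 CPM and rose in dCD from 64.7, 75.1 and 61.9 CPM to 279, 265 and 262 CPM (interaction 3.06, SE 0.09). Thbs1, thrombospondin 1, was at 48.8, 45.9 and 44.8 CPM in NPC WT and 233, 235 and 222 CPM in NPC dCD (interaction 1.88, SE 0.08). Fn1, fibronectin, fell less in dCD, to 797, 787 and 751 CPM against 375, 379 and 371 CPM in WT (interaction 1.31, SE 0.06). Lox, the enzyme that cross-links collagen and elastin, also fell less (1.96, SE 0.12). In the same list Col2a1 (−1.38), Fbn2 (−1.48), Mgp (−1.29), Col6a1 (−1.15) and Col6a2 (−1.19) had negative interactions of at least 2-fold. Col2a1, Col6a1 and Col6a2 ended lower in dCD. Fbn2 and Mgp started higher in dCD, by 1.89 and 1.33 on the log2 scale. As NPC, Fbn2 was still higher (means of 466 against 351 CPM), and the Mgp difference was not called. Of the 33 genes, 25 were called higher in dCD as ESC and 2 lower (25.7% and 22.6% over all genes). As NPC, 23 were called higher and 6 lower (26.7% and 26.8% over all genes). Of genes that define fibroblasts, Col1a1 had no call in the interaction.

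In the BMP and TGF-beta list, 7 of 42 genes had a positive and 4 a negative interaction of at least 2-fold. Bmp3, a ligand that restrains BMP signalling, had 2 counts in ESC WT and none in ESC dCD, and was at 0.443, 0.533 and 0.726 CPM in NPC WT and 23.1, 24.2 and 21.4 CPM in NPC dCD. Its NPC difference was 5.32 (SE 0.18); its interaction depends on those ESC counts and was not called without ESC WT replicate 3 (adjusted p = 1, edgeR). Tgfb1 fell in WT to 2.09, 2.58 and 2.82 CPM but was at 12.1, 9.27 and 11.6 CPM in NPC dCD (interaction 1.96, SE 0.18). Those NPC dCD levels were near its ESC dCD range of 9.32 to 11 CPM. Tgfb2 reached 115, 120 and 109 CPM in NPC dCD against 40.7, 39.6 and 38.6 CPM in NPC WT (0.72, SE 0.13). It was already higher in dCD as ESC, at 7.43, 8.12 and 7.31 CPM against 3.51, 4.21 and 5 CPM in WT. Id1, a target of BMP signalling, had a negative interaction (−1.78, SE 0.12), from an ESC level of 20.7, 19.9 and 21.8 CPM in dCD against 7.13, 7.3 and 9.58 CPM in WT.

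Targets of p53, the transcription factor of the DNA damage and stress response, had the highest median of the 30 lists, 0.83. Of 22 tested, 19 were called positive and 1 negative (20% and 22.9% over all genes), 8 and 0 of them at least 2-fold. Their median difference between dCD and WT was −0.13 in ESC and 0.70 in NPC, and their summed level in NPC was 1980 to 1990 CPM in WT and 3210 to 3300 CPM in dCD. Cdkn1a, the cell cycle inhibitor p21, was at 104, 99.8 and 108 CPM in ESC WT and 99.9, 101 and 92.2 CPM in ESC dCD; it was at 93.2, 90.3 and 88 CPM in NPC WT and 214, 199 and 201 CPM in NPC dCD (interaction 1.27, SE 0.06). Mdm2, the ligase that degrades p53, fell in WT to 131, 136 and 135 CPM and stayed at 265, 274 and 257 CPM in dCD (interaction 1.00, SE 0.05). For both genes the genotypes overlapped in ESC and were apart in NPC.

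Perp, a membrane protein of p53-dependent death and of cell junctions, was at 32.5, 31.3 and 31.7 CPM in NPC WT and 128, 118 and 115 CPM in NPC dCD (interaction 1.81, SE 0.08). Pmaip1, the death activator NOXA, fell in WT from 47.5, 44.6 and 49 CPM to 7.79, 7.19 and 7.6 CPM and in dCD from 28.8, 29.9 and 29.2 CPM to 21.9, 22.9 and 25.2 CPM (interaction 2.32, SE 0.10). Gdf15, a stress cytokine, had an interaction of 3.19 (SE 0.42) at NPC levels of at most 1.56 CPM, and Btg2, an antiproliferative factor, one of 1.52 (SE 0.07). The exception was Sesn1, a stress-response regulator, which reached 79.6, 82.7 and 85.6 CPM in NPC WT and 47, 51.8 and 46.1 CPM in NPC dCD (interaction −0.76, SE 0.08).

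**Figure D4:**
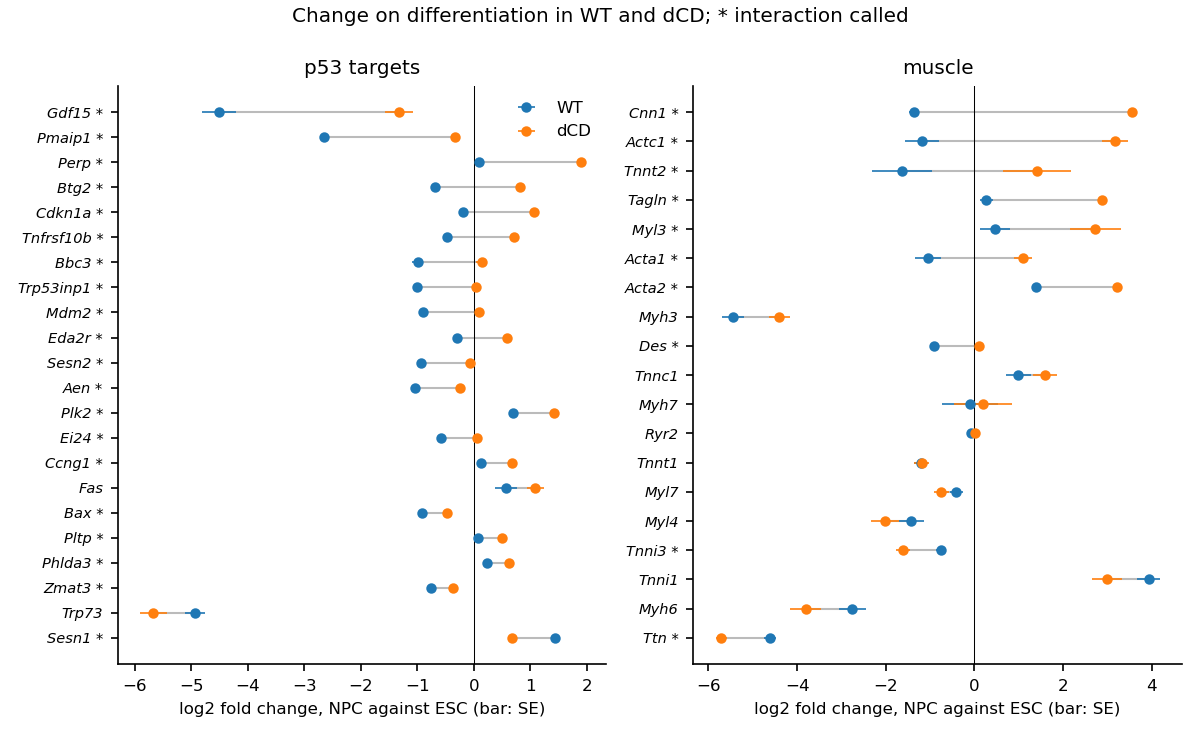
Log2 fold change from ESC to NPC in WT (blue) and dCD (orange) for the 22 p53 targets and 19 muscle genes tested, with bars for the standard error and an asterisk where the interaction was called. In 19 of the 20 called p53 targets the dCD point lies to the right of the WT point, with Sesn1 the exception, while the muscle genes move to the right for 8 members and to the left for Tnni3 and Ttn.

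Genes silenced less in dCD included some that hardly fell at all. Ptgs2, the inducible cyclooxygenase that makes prostaglandins, fell in WT from 28.1, 29.9 and 28.4 CPM to 1.39, 0.985 and 0.95 CPM. In dCD it was at 36.5, 37.4 and 34 CPM in ESC and at 35, 34.2 and 31.7 CPM in NPC (interaction 4.62, SE 0.13, edgeR adjusted p = 3.8e-25). Tm4sf1, a tetraspanin-like membrane protein, fell in WT to 0.317, 0.213 and 0.168 CPM and in dCD to 9.82, 7.45 and 8.48 CPM (interaction 4.57, SE 0.25). Cdhr1, a cadherin of photoreceptors, fell in WT to 3.32, 3.2 and 3.27 CPM and rose in dCD from 6.7, 7.66 and 7.2 CPM to 12.2, 13.9 and 13.2 CPM (interaction 3.59, SE 0.16). For all 3 genes the NPC groups did not overlap.

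In the pluripotency network, 18 of 30 genes had no call in the interaction. The other 12 were called (42.9% over all genes tested), so calls were about as frequent as over all genes. They were 7 positive and 5 negative (20% and 22.9% over all genes), with 5 and 1 at least 2-fold. The list median was −0.04, the same as over all genes. As NPC, 7 members were called higher in dCD and 6 lower (26.7% and 26.8% over all genes). All 5 positive ones of at least 2-fold are named below, and no member called negative is. Nanog, a core factor, fell to 1.96, 1.3 and 1.87 CPM in NPC WT and 1.41, 1.24 and 1.38 CPM in NPC dCD, and its interaction of −0.37 (SE 0.17) was not called; it was called without ESC WT replicate 1 (−0.41) or NPC WT replicate 2 (−0.54). Dppa2, a factor that keeps developmental promoters open, retained more transcript: it fell in WT from 34.6, 29.7 and 32.7 CPM to 0.696, 0.746 and 1.06 CPM, and in dCD from 60.9, 69.5 and 65.3 CPM to 9.48, 9.93 and 9.71 CPM (interaction 2.51, SE 0.15). Its partner Dppa4 had an interaction of 1.58. Tdgf1, a Nodal coreceptor, was at 1.42, 1.33 and 1.79 CPM in NPC WT and 6.5, 5.68 and 5.37 CPM in NPC dCD (2.12, SE 0.13), out of ESC levels of 873 CPM or more. Sox2 was at 31.2, 27.9 and 25.9 CPM in NPC dCD (1.61, SE 0.08), and it started lower in dCD (ESC means of 200 against 311 CPM). Klf4 had an interaction of 1.12. Among 14 formative genes, which mark the step after naive pluripotency, 10 were called negative and 2 positive, 3 and 1 of them at least 2-fold.

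Germline genes were more often positive where called. Of 38 tested, 18 were called positive and 8 negative (20% and 22.9% over all genes), 9 and 3 of them at least 2-fold. Meioc, needed for meiosis, fell in WT from 52.7, 53.4 and 55.8 CPM to 16.8, 16.8 and 16.3 CPM and rose in dCD from 34.2, 33.4 and 35.2 CPM to 50, 52.4 and 49.7 CPM (interaction 2.26, SE 0.08). Sycp3, a protein of the meiotic chromosome axis, ended at 0.791, 0.666 and 0.838 CPM in WT and 1.84, 1.32 and 1.03 CPM in dCD (interaction 1.57, SE 0.27). Tuba3a, a testis tubulin with a near-identical copy, had an interaction of 1.57 (SE 0.14), and the assignment of its reads is uncertain.

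Genes of the two-cell state, a short-lived programme of a few ESC, started higher in dCD and, where called, fell more. Of 21 tested, 9 had a negative interaction, all at least 2-fold, and none a positive one; all 21 were called higher in dCD as ESC (25.7% over all genes), with a median difference of 2.34. Zscan4e, a zinc-finger gene of this state, fell in WT from 2.5, 3.75 and 3.36 CPM to 0.475, 0.426 and 0.112 CPM and in dCD from 21.8, 23.1 and 19 CPM to 0.491, 0.386 and 0.499 CPM (interaction −2.25, SE 0.48). The genotypes were apart in ESC and overlapped in NPC. Zscan4 and Usp17l genes are near-identical copies, so their reads cannot be assigned with certainty and the 21 genes are not independent. Outside this list, Cpne5, a calcium-dependent membrane-binding protein, fell to 3.1, 3.2 and 2.88 CPM in NPC WT and 0.982, 0.8 and 0.997 CPM in NPC dCD (interaction −2.44, SE 0.21). Vwa3b fell from between 8.99 and 9.16 CPM to 14 counts over the NPC WT group, and to 2 counts over the NPC dCD group, both in replicate 3; without that library the fitted interaction went from −2.93 to −5.51.

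Some genes responded only in dCD at the 2-fold limit. Col9a3, a cartilage collagen, went from 6.28, 8.36 and 6.87 CPM to 4.27, 3.7 and 3.97 CPM in WT and from 3.67, 4.02 and 3.36 CPM to 29.2, 26.9 and 23.1 CPM in dCD (interaction 3.71, SE 0.20). Serpinb9b, a protease inhibitor, was at 1.84, 1.84 and 2.15 CPM in NPC WT and 38.1, 35.7 and 37.1 CPM in NPC dCD (3.09, SE 0.26). Tnfrsf12a, the TWEAK receptor, overlapped between genotypes in ESC and was at 64, 54.4 and 59.5 against 8.04, 8.81 and 8.8 CPM in NPC (2.83, SE 0.12). In the other direction, Fgf1, a growth factor, was at 8.32, 8.55 and 8.04 CPM in NPC WT and 2.27, 2.73 and 2.46 CPM in NPC dCD (−2.17, SE 0.16). Serpinf1, which encodes the secreted factor PEDF, rose in WT to 32.8, 35.8 and 34.6 CPM and fell in dCD from 32.1, 38 and 31.3 CPM to 12.9, 12.3 and 12.7 CPM (−2.16, SE 0.10). Wscd2 fell to 2.27, 2.4 and 2.9 CPM in dCD, against 8.83, 8.01 and 8.94 CPM in NPC WT (−2.14, SE 0.17).

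Genes that moved at least 2-fold in opposite directions were 8 induced in WT and 27 silenced in WT. Grb10 was the only one of the 8 whose mean over the 12 libraries reached 5 CPM, and the group also held Cdx2 and Nkx1-2, factors of the tail bud, whose group means did not exceed 1.42 CPM and whose ESC WT groups held 6 and 4 counts (Nkx1-2 went from −5.20 to −9.09 without ESC WT replicate 1). Of the 27, 23 were at least 2-fold higher in NPC dCD than in NPC WT. They included Cnn1, Actc1, Acta1, Tnc and Hoxc13, described above, and Rin1, a RAS effector, which was at 3.51, 3.43 and 3.07 CPM in NPC WT and 18.6, 17.7 and 19 CPM in NPC dCD (interaction 2.73, SE 0.15). Sez6, a neuronal membrane protein, was at 1.39, 1.22 and 0.95 CPM in NPC WT and 14.6, 14.7 and 13.6 CPM in NPC dCD (2.72, SE 0.21). The NPC groups did not overlap for Rin1 or Sez6.

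Among genes induced more, Calcr, the calcitonin receptor, started lower in dCD, at 0.598, 0.746 and 1.12 CPM against 5.22, 4.45 and 6.02 CPM in WT, and ended at 31.4, 28 and 27.8 CPM against 19.1, 20.4 and 20.1 CPM (interaction 3.19, SE 0.21). Asic4, an ion channel gene, had no count in ESC dCD and reached 14.5, 10.7 and 13.3 CPM in NPC dCD, a rise of at least 316-fold against the floor, and 8.7, 9.96 and 8.38 CPM in NPC WT. Ednrb, an endothelin receptor of the neural crest, reached 78.5, 83.7 and 75.7 CPM in NPC dCD against 21.6, 23.6 and 22.4 CPM in WT (1.77, SE 0.31). Foxa1, a pioneer factor of endoderm and floor plate, reached 33.1, 33.4 and 34 against 11.1, 12.7 and 10.6 CPM (1.19, SE 0.28). Hoxb9 reached 188, 192 and 195 against 97.1, 97.5 and 102 CPM, but its interaction was small (0.38, SE 0.14) with dCD also higher in ESC, and it was not called with halved counts (0.37), without ESC WT replicate 2 (0.22) or without ESC dCD replicate 1 (0.26).

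Metabolic and housekeeping groups moved by smaller amounts. Of 27 genes of cholesterol synthesis and its control, 22 were called positive and 4 negative, but only 2 and 1 were at least 2-fold, with a median of 0.44; 21 were called lower in dCD as ESC (22.6% over all genes). Msmo1, an enzyme of a late step of the pathway, had an interaction of 1.12 (SE 0.05). Of 34 glycolysis and hypoxia genes, 19 were called negative and 6 positive. The list was lower in dCD at both stages, with median differences of −0.27 in ESC and −0.45 in NPC. As ESC, 25 were called lower in dCD and none higher (22.6% and 25.7% over all genes). As NPC, 29 were called lower and 3 higher (26.8% and 26.7% over all genes). The glucose transporter gene Slc2a1 fell to 359, 374 and 351 CPM in WT and to 177, 165 and 179 CPM in dCD (−1.02, SE 0.05). Of 36 cell cycle genes, 19 were called negative and 9 positive (22.9% and 20% over all genes). The 1 of at least 2-fold was Cdkn2b, a cyclin-dependent kinase inhibitor (1.22, SE 0.13). Cdkn2b was already higher in dCD as ESC, at 14.1, 14.2 and 13.7 CPM against 5.16, 4.25 and 5.57 CPM in WT. It reached 51, 49.6 and 48.7 CPM in NPC dCD against 8.04, 7.11 and 7.65 CPM in NPC WT.

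The enzymes of histone H3 lysine 4 methylation, Polycomb and DNA methylation had few interactions of at least 2-fold. Of 24 COMPASS and lysine 4 genes, 10 were called negative and 1 positive, and 1 was at least 2-fold: Setd1b, a methyltransferase of the same family, at 16.1, 19.3 and 17.5 CPM in ESC WT and 45.4, 39.9 and 43 CPM in ESC dCD (−1.15, SE 0.09). Of 38 Polycomb and DNA methylation genes, 20 were called negative and 9 positive, and the 1 of at least 2-fold was Phf19, a cofactor of Polycomb complex 2 (1.17, SE 0.14). Cbx2, a Polycomb reader subunit, reached 126, 130 and 128 CPM in NPC WT and 80.1, 78.8 and 76.2 CPM in NPC dCD (−0.90, SE 0.06).

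**Figure D5:**
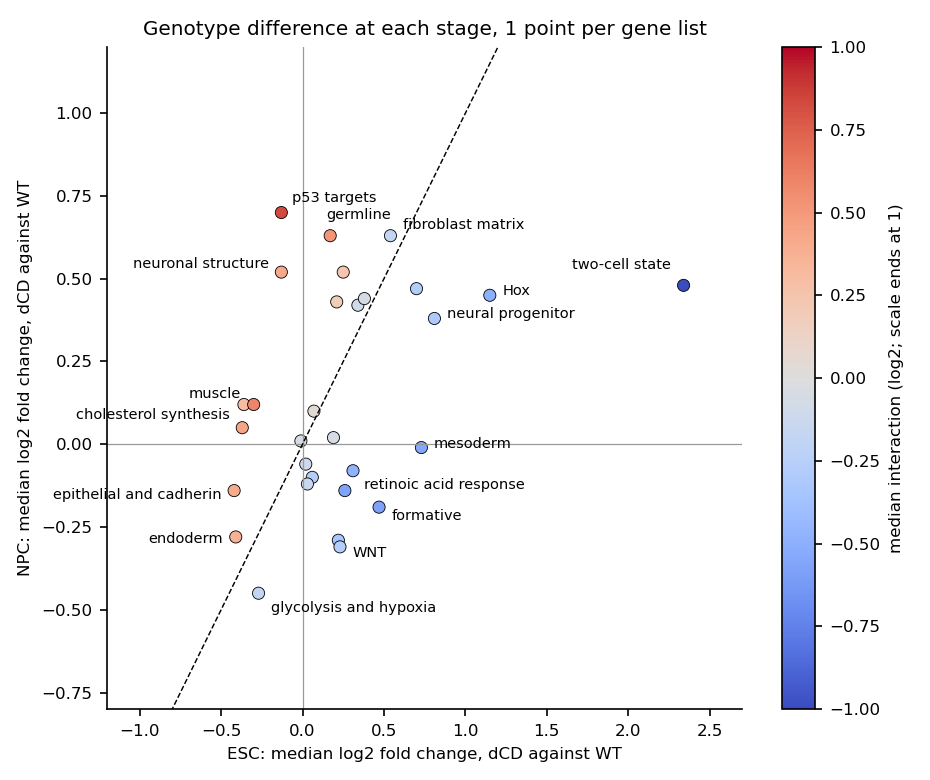
Median log2 difference between dCD and WT over the tested members of each of 30 gene lists, in ESC on the horizontal and in NPC on the vertical axis, coloured by the median interaction; the dashed line marks an equal difference at both stages. Two-cell state and Hox lists lie far to the right, higher in dCD as ESC, and the p53 targets lie near 0 in ESC (−0.13) and at 0.70 in NPC.

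For the remaining lists, counts of interactions of at least 2-fold are given as positive, then negative. The neural crest list had 2 and 8 of 28, and its median was −0.28, or 0.02 with groups of no count set at the floor. The epithelial and cadherin list had 7 and 0 of 26, with 15 members called lower in dCD as ESC (22.6% over all genes), and the endoderm list 2 and 0 of 30. The trophoblast list had 0 and 5 of 15, the Notch list 6 and 2 of 28 and the interferon and antigen presentation list 6 and 1 of 36. Proneural factors had 6 and 5 of 40, axon guidance genes 4 and 8 of 39, FGF genes 3 and 5 of 32 and Hedgehog genes 2 and 2 of 19. Within them, Cxcl12, a chemokine, fell in WT to 10, 9.96 and 9.66 CPM and was at 33.3, 39.5 and 37.7 CPM in NPC dCD (2.04, SE 0.09). Dll1, a Notch ligand, started lower in dCD, at 12.8, 10.3 and 10.6 CPM against 30.8, 29.4 and 31.6 CPM, and fell less (2.16, SE 0.14). Sema3f, a repulsive guidance cue, reached 41, 44.9 and 43.5 CPM in NPC WT and 16.8, 16.7 and 16.4 CPM in NPC dCD (−2.03, SE 0.13).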

How the data were processed

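The deposited table holds whole-number counts of reads by gene symbol, which the authors left unscaled. TruSeq Stranded mRNA is the kit named per the labels' protocols, and HTSeq is named in the submitters' processing notes. Aligner, genome build and strand setting: not given in the sources used here. Of 51734 symbols, 37417 had a count in the 18 libraries used. All 37 mitochondrial genes were at 0. A further 18 columns and 18 samples were not analysed here.

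The tools were edgeR 4.0.16 and limma 3.58.1 under R 4.3.3. filterByExpr by group left 20511 genes, TMM factors scaled libraries, and edgeR's quasi-likelihood fit took 18 libraries in 6 groups, each with its own mean (12 residual degrees of freedom, common dispersion 0.00161). Two-sided F tests were adjusted over all genes tested (Benjamini-Hochberg) and called at adjusted p under 0.05. SE is the log2 change divided by the root of F. CPM use TMM factors. Groups without a count were set to 3 counts over the group where a fold is given. Floors cover counting error only. The test was checked on simulated data.

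The members and the 30 lists (927 of 934 symbols in the table) were chosen with earlier results of these data known. Genes were named by this rule: per response class the 3 largest called interactions where the mean reached 5 CPM, and per list up to 3 where it reached 1 CPM, in both cases keeping the sign for all 81 choices of 1 library per group (log2 of CPM + 0.5), without predicted models; and Kmt2c and Kmt2d. Other genes in the text were chosen after their values were seen. The alternatives were 3 other scalings, 2 filters, DESeq2 1.42.0, a fit of 4 groups, a replicate block, halved counts and leaving out each of 12 libraries. Some results are not reported here.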

Additional observations from a re-analysis of the deposited data

Results flagged for a closer look

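The change on differentiation differed between dCD and WT, by the interaction term of the edgeR quasi-likelihood fit, for 8807 of 20511 genes tested. For 8 genes, Grb10 among them, WT rose and dCD fell by at least 2-fold, and for 27 genes, among them Cnn1, Tnc, Rin1 and Sez6, WT fell and dCD rose by at least 2-fold.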

How the results depend on the processing

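Under 21 alternatives, 8274 (without NPC WT replicate 3) to 8980 (DESeq2) genes were called except with a filter at a mean of 5 CPM or more, where 7525 of the 11803 genes then tested were called. That filter tests fewer genes by construction and lowered the counts: 553 positive and 456 negative interactions of at least 2-fold, 10563 genes called on differentiation in WT and 10499 in dCD, 323 induced less, 68 induced more, 286 silenced less, 56 silenced more, 105 induced in dCD, 41 silenced in dCD, and 1 and 5 opposite, induced and silenced in WT. No other alternative moved these counts by over 1.5 times, and the share of positive calls stayed between 44.2% and 47.5%. Replicate numbers do not pair the samples (18 correlations of same-numbered deviations, −0.0237 to 0.032); with the replicate number as a block 8666 genes were called, 8621 of them shared with the 8807. Of the values of single named genes under the alternatives, none changed direction while called. The medians of 6 lists changed sign under some alternative (BMP and TGF-beta, FGF, Hedgehog, axon guidance, pluripotency and proneural), so no direction is given for them. Depth limits genes near the floor in ESC, whose folds rest on few counts.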
